A study of Mus musculus with 9 samples.

Results

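Forkhead genes were followed across mesenchymal cells of 3 mouse tissues, as the gene symbols of the count tables that consist of Fox, a family letter from a to s and a number. The rule gave 44 of 23420 genes and used no measured value. It left out 3 other symbols that begin with Fox, namely Foxl2os, Foxred1 and Foxred2. The cells came from C57BL/6 mice aged 3 to 4 weeks, from the thymus, from bone (femur, tibia and pelvis) or from truncal skin, with 3 RNA sequencing libraries per tissue and no treatment or genetic change named for any of them. They were sorted as positive for SCA1, a membrane protein found on many progenitors, and negative for EpCAM, CD31 and markers of blood cells, with at least 25000 cells per sample. The thymus libraries are named 2, 3 and 1-3, and whether the last is a pool that shares material with the others is not given in the labels. The labels do not name separate animals for the libraries either, so the p-values measure only how far these samples spread, which could be technical.

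Forkhead proteins are transcription factors that share a winged helix DNA-binding domain. FOXC, FOXD, FOXF, FOXL and FOXS factors are known from mesoderm and neural crest, where they pattern connective tissue, vessel walls and organ stroma. FOXO factors act in the nucleus when insulin and AKT signalling is low, FOXP factors are mostly repressors, FOXM1 drives genes of mitosis, and FOXN1 is the factor whose loss leaves nude mice without a thymus and hair.

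Libraries held 78757872 to 116759235 reads on genes, of which the forkhead genes took 0.0434 to 0.102%. Of the 44 genes, 28 passed the filter on low counts, 8 had 10 or more reads but fell below it, Foxr2 had 2 reads, and 7 had none in any library (Foxb1, Foxb2, Foxe3, Foxh1, Foxi1, Foxi2 and Foxn4). All 8 markers of mesenchymal cells, among them Pdgfra, Col1a1 and Ly6a (the SCA1 gene), were detected in each tissue. Their summed level was 28771 to 31163 CPM in thymus cells, 35840 to 38587 in bone cells and 179482 to 205837 in skin cells. Col1a1 and Col1a2 made up most of the skin sum, at 97246 ± 7920 and 80380 ± 6751 CPM. By the test given below, 2 of the 8 markers were higher and 4 lower in thymus than in skin. Pdgfra was highest in thymus cells, at 1160 ± 37.7 CPM, against 737 ± 59.0 in bone cells and 776 ± 87.7 in skin cells. CPM are counts scaled by library size and a TMM factor, and library values are given in the order 2, 3 and 1-3 for thymus and 1, 2 and 3 for bone and skin. Fold changes are log2 values ± SE from edgeR's quasi-likelihood test, the first tissue named minus the second, and a gene passed at a Benjamini-Hochberg adjusted p under 0.05 over all 15635 genes tested. The SE was worked back from the F statistic and is approximate. Floors for groups with 0 reads cover counting error only.

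The counts of forkhead genes that passed are given beside the share over all genes, and the shares were not tested against each other. Of the 28 tested, 13 differed among the 3 tissues, or 46.4%, against 56.2% of all genes tested. In thymus, 3 were higher than in bone (10.7%, against 16.5% of all genes) and 7 were lower (25%, against 16.1%). Against skin, 5 were higher in thymus (17.9%, against 19.3%) and 3 were lower (10.7%, against 18.3%). In bone, 11 were higher than in skin (39.3%, against 23.7%) and 1 was lower (3.57%, against 23.4%). Changes of at least 4-fold in either direction were called for 3 forkhead genes between thymus and bone (10.7%, against 11.3% of all genes), 6 between thymus and skin (21.4%, against 11.4%) and 7 between bone and skin (25%, against 14%). The median log2 fold change of the 28 was -0.15 for thymus minus bone, -0.03 for thymus minus skin and 0.19 for bone minus skin, against 0.02, 0.03 and 0.03 over all genes. Setting Foxl1, which had no read in skin, to its bound left these medians at -0.03 and 0.19 in the comparisons with skin. The 3 comparisons share libraries and are not independent of one another. Counts and medians of the gene lists below are to be read beside these same values over all genes. They were not tested against them.

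**Figure D1:**
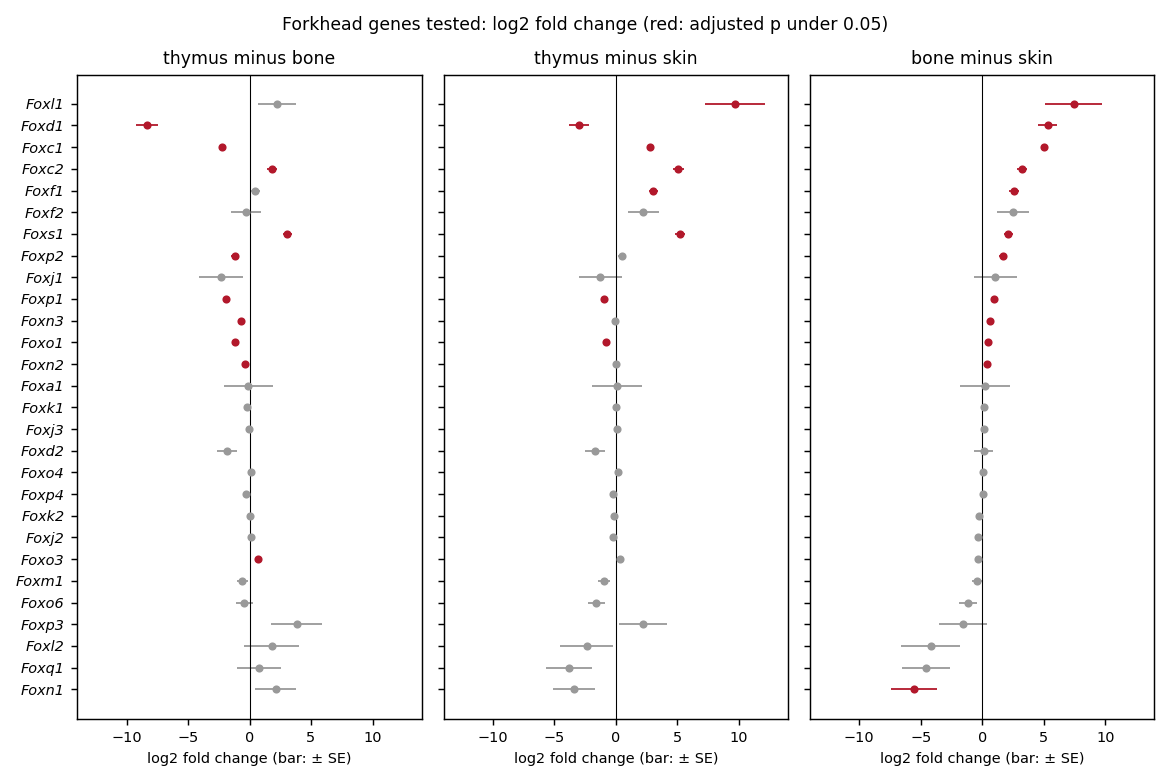
Log2 fold change of each of the 28 forkhead genes tested, with the SE as a bar, for thymus minus bone, thymus minus skin and bone minus skin; genes run from the highest to the lowest value in bone minus skin, and red marks an adjusted p under 0.05. Foxs1 and Foxc2 lie right of 0 in all 3 panels, Foxd1 and Foxc1 change side between them, and most genes of wide expression lie near 0.

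Promoters of 3 genes that were highest in bone are shown for the sequence around their starts: Foxc1, a regulator of marrow stroma in mice, Foxd1, a factor of stromal progenitors, and Foxo1, a sensor of insulin signalling. The sequences are from RefSeq on GRCm38.p6, the build that mm10 names, and run from 250 bases before to 50 bases after the start. All are on the plus strand, at chr13:31806396-31806695 for Foxc1, chr13:98353995-98354294 for Foxd1 and chr3:52268087-52268386 for Foxo1. Capitals mark matches on either strand to TAAACA (a core forkhead motif), TATAAA (the TATA box), CCAAT (the CCAAT box) and GGGCGG (the GC box), and overlapping matches run together.
Foxc1: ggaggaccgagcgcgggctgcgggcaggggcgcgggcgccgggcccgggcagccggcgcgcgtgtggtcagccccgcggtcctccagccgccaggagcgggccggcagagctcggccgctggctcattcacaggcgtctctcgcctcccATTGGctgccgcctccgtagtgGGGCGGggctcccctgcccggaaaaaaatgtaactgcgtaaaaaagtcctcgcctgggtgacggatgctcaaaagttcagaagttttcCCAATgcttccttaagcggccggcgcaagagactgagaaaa
Foxd1: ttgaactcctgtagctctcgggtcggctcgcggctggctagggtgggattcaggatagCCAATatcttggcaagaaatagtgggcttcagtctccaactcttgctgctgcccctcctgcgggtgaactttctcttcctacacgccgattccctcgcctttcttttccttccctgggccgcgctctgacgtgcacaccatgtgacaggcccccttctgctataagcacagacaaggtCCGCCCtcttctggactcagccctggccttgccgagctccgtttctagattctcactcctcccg
Foxo1: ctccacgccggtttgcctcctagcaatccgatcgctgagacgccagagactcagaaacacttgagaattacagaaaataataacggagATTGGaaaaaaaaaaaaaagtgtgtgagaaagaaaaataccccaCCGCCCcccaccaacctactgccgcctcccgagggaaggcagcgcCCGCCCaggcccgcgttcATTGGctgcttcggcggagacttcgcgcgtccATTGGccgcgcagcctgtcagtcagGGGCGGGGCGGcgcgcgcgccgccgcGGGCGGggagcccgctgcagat
Foxo1 had 5 matches to GGGCGG and 3 to CCAAT, Foxc1 had 1 and 2, and Foxd1 had 1 of each, while neither TAAACA nor TATAAA occurred in these windows. Of the 44 forkhead genes, 28 had promoters in the RefSeq table, with 33 windows in all. GGGCGG was present in 72.7% of these windows, against 35.7% of all 32851 windows of the table. CCAAT was in 45.5%, against 37.4%, TATAAA in 9.09%, against 13.6%, and TAAACA in 15.2%, against 13.4%. The shorter letters AAACA, which TAAACA contains, were in 51.5% and 50.5%. Median GC content was 62.7% in the forkhead windows and 52.7% in all windows, and the median number of CpG was 22 and 7. A match is a description of the letters and shows no binding. The promoters of Foxs1, Foxc2, Foxf1 and Foxl1 are not printed.

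Of the 9 genes tested from the mesodermal subfamilies, 6 differed among the tissues, a share near the 56.2% of all genes tested. Their summed level per length was 57.1 ± 10.1 RPKM in thymus, 36.5 ± 3.20 in bone and 2.22 ± 0.164 in skin (SD, n = 3 each). In CPM the sums were 100 ± 17.1 in thymus, 116 ± 6.64 in bone and 7.76 ± 0.362 in skin. Skin was lowest in both units, while the order of thymus and bone depends on the unit. RPKM are the authors' deposited values of reads scaled by gene length and sequencing depth, and do not follow the counts throughout. Foxh1, with 0 counted reads, had 0.0298 RPKM in thymus 1-3, and Foxp3, with 0 counted reads in bone 3, had 0.0375 RPKM there. Different genes made up the sums of thymus and bone: Foxs1 had the highest RPKM of any forkhead gene in thymus, and Foxc1 led the mesodermal genes in bone.

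Foxs1, a factor known from pericytes and neural crest derivatives, had its highest values in the thymus cells. It was at 57.5, 38.6 and 65.3 CPM in the thymus libraries, 4.35, 9.72 and 5.08 in bone and 1.14, 2.14 and 1.15 in skin. The 3 tissues did not overlap, and the lowest thymus library, thymus 3, was well above the highest bone library, bone 2. Foxs1 was 8.41-fold higher in thymus than in bone (3.07 ± 0.37, adjusted p = 0.000101), 36.6-fold higher in thymus than in skin (5.20 ± 0.41, adjusted p = 4.51e-06) and 4.35-fold higher in bone than in skin (2.12 ± 0.37, adjusted p = 0.000784). In libraries made from many cells, a lower share of Foxs1-bearing cells and less Foxs1 RNA per cell cannot be told apart, and the same holds for each gene below. The 7 markers of pericytes and smooth muscle were all detected in each tissue and summed to 961 to 1265 CPM in thymus cells, 393 to 401 in bone cells and 158 to 172 in skin cells. Des, the muscle filament desmin, stood at 691 ± 140.1 CPM in thymus cells, 12.6 ± 4.30 in bone cells and 11.7 ± 2.31 in skin cells, and Notch3, a receptor of mural cells, at 253 ± 48.2, 58.4 ± 16.3 and 10.5 ± 2.64. Rgs5 and Cspg4, which mark pericytes, were instead lower in thymus than in bone, with log2 fold changes of -2.24 ± 0.29 and -3.16 ± 0.20 (adjusted p = 0.000146 and 7.19e-07). The part of such cells in the Foxs1 values was not tested. In mm10, Foxs1 spans 152931898 to 152933208 on chromosome 2.

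Foxc1 and Foxc2, close relatives that act together in somites, vessels and the skull, went opposite ways between thymus and bone. Foxc1 was at 20.7, 16.1 and 17.1 CPM in thymus, 91.1, 80.1 and 84.5 in bone and 2.64, 2.61 and 2.77 in skin. Replicates lay close together and the tissues did not overlap. Foxc1 was 4.74-fold lower in thymus than in bone (-2.25 ± 0.14, adjusted p = 6.13e-07), 6.72-fold higher in thymus than in skin (2.75 ± 0.15, adjusted p = 1.44e-07) and 31.9-fold higher in bone than in skin (4.99 ± 0.16, adjusted p = 5.71e-09). Foxc2, which is also needed for lymphatic valves, was at 17.7, 12.7 and 20.4 CPM in thymus, 2.61, 7.39 and 4.33 in bone and 0.675, 0.440 and 0.369 in skin. The order of the tissues was thus thymus, bone and skin, again without overlap. Foxc2 was higher in thymus than in bone (1.83 ± 0.38, adjusted p = 0.00316) and than in skin (5.09 ± 0.45, adjusted p = 4.69e-06), and higher in bone than in skin (3.27 ± 0.42, adjusted p = 6.31e-05). Within a library, Foxc1 RPKM over Foxc2 RPKM was 0.797, 0.859 and 0.570 in thymus, 23.7, 7.39 and 13.4 in bone and 2.63, 4.03 and 4.77 in skin. This pair was chosen with the values known and its ratio was not tested. It shows Foxc2 as the higher of the pair per length in each thymus library and Foxc1 in each bone and skin library. Bone libraries carried more reads of other cell types as well: 7 myeloid markers summed to 18.5 to 79.9 CPM in thymus cells, 1976 to 2603 in bone cells and 36.9 to 84.1 in skin cells. The 6 markers of chondrocytes and osteoblasts summed to 10.9 to 19.5, 473 to 866 and 11.7 to 14.5 CPM in thymus, bone and skin. None of the myeloid markers was at 0 in any tissue, and 1 cartilage or bone marker was at 0 in thymus and 1 in skin. The 6 B cell markers summed to 0.537 to 3.54 CPM in thymus cells, 84 to 120.5 in bone cells and 0.242 to 0.382 in skin cells, with 1 marker at 0 in thymus, none in bone and 2 in skin, and all 6 were higher in bone than in thymus and than in skin. The sort had used antibodies to B220 and CD11b to remove B cells and myeloid cells. The part of these cell types in the values of Foxc1 and of the other genes that were highest in bone was not tested.

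Genes that FOXC1 serves in the marrow niche, or that mark the cells which carry it, were followed as a list of 13. Of these, 6 were higher and 3 lower in thymus than in bone, with a median log2 fold change of 0.65, against 0.02 over all genes. Against skin, 5 were higher and 3 lower in thymus, with a median of 0.21. In bone, 6 were higher and 3 lower than in skin, with a median of 0.08. Cxcl12, which retains blood stem cells in marrow, was at 231 ± 34.8 CPM in thymus cells, 962.5 ± 117 in bone cells and 359 ± 82.7 in skin cells. Lepr, the leptin receptor of marrow stroma, was at 33.5 ± 6.12, 168 ± 30.8 and 38.2 ± 5.23 CPM in the same tissues. Both were thus highest in bone, as was Foxc1 (Cxcl12 thymus minus bone -2.06 ± 0.19, adjusted p = 9.48e-06, and Lepr -2.33 ± 0.19, adjusted p = 3.24e-06). Pdgfrb, a receptor of mural cells, and Cdkn2b, a brake on the cell cycle, were highest in thymus. Pdgfrb was at 756 ± 57.9 CPM in thymus cells, 271 ± 16.3 in bone cells and 257 ± 52.1 in skin cells, and Cdkn2b at 15.6 ± 1.14, 2.80 ± 0.566 and 1.01 ± 0.383.

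Foxd1, known from the stroma of the embryonic kidney in mice, had its highest values in the bone cells. It was at 0, 0.0837 and 0.00980 CPM in thymus, 12.0, 10.7 and 9.13 in bone and 0.124, 0.352 and 0.323 in skin. The thymus values rest on 0, 10 and 1 reads, and the bone values on 3334 reads in all. Foxd1 was lower in thymus than in bone (-8.33 ± 0.93, adjusted p = 4.09e-05) and higher in bone than in skin (5.32 ± 0.78, adjusted p = 0.000199). Against skin it was lower as well (-3.01 ± 0.83, adjusted p = 0.0135). Without thymus 3, which held most of the thymus reads, the value was -10.82 against bone and -5.50 against skin, and without thymus 2 it was -7.74 and -2.42. The call against skin did not pass without thymus 1-3 (-2.62, adjusted p = 0.0509), with adjusted p of 0.000167 to 0.624 over all alternatives. Foxd2, a relative of Foxd1, was at 0.109, 0.602 and 0.480 CPM in thymus, 1.29, 1.65 and 1.28 in bone and 1.37, 1.08 and 1.45 in skin. The thymus libraries were all below the others, and the differences from bone and skin did not pass (-1.82 ± 0.80, adjusted p = 0.103, and -1.71 ± 0.80, adjusted p = 0.115). DESeq2 called Foxd2 in both comparisons (adjusted p = 0.0236 and 0.0322), and limma on unfiltered RPKM called it against bone (adjusted p = 0.0122). Adjusted p ran up to 0.23 and 0.28 over the alternatives.

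Foxf1, Foxc2 and Foxl1 lie within 46.3 kb of one another on chromosome 8, at 121084386 to 121130644 in mm10, and all 3 had more reads in thymus and bone than in skin. Foxf1, a target of hedgehog signals in the mesenchyme of gut and lung, was at 11.3, 10.2 and 4.99 CPM in thymus, 8.67, 5.90 and 4.64 in bone and 1.08, 1.17 and 0.923 in skin. Thymus and bone overlapped, with thymus 1-3 within the range of bone, and the difference did not pass (0.46 ± 0.36, adjusted p = 0.357). Foxf1 was 8.34-fold higher in thymus than in skin (3.06 ± 0.39, adjusted p = 8.18e-05) and 6.05-fold higher in bone than in skin (2.60 ± 0.38, adjusted p = 0.000188). Foxl1, known from the mesenchyme under the gut epithelium, was at 0.999, 1.07 and 1.02 CPM in thymus, 0.408, 0.239 and 0 in bone and 0 in each skin library. With a floor of 3 reads over the 3 skin libraries, it was at least 83.8-fold higher in thymus than in skin (adjusted p = 0.0104) and at least 18.2-fold higher in bone than in skin (adjusted p = 0.0238). Bone 3 had no read of Foxl1 either, so bone and skin overlapped. The call between bone and skin did not pass without skin 1 (adjusted p = 0.0546) or without skin 2 (adjusted p = 0.0575), with adjusted p of 0.00166 to 0.161 over all alternatives. Between thymus and bone Foxl1 did not pass (2.25 ± 1.56, adjusted p = 0.307), though the 3 thymus libraries lay above the 3 bone libraries.

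Of the genes interspersed with this cluster, Mthfsd lies between Foxf1 and Foxc2 and is named for a folate enzyme domain. It was at 13.3 ± 0.878 CPM in thymus cells, 8.07 ± 0.838 in bone cells and 9.39 ± 2.87 in skin cells. Mthfsd was higher in thymus than in bone (0.72 ± 0.23, adjusted p = 0.0329) and did not pass between thymus and skin (0.50 ± 0.23, adjusted p = 0.113) or bone and skin (-0.22 ± 0.23, adjusted p = 0.468). Fendrr, a noncoding RNA whose gene lies next to Foxf1, had 0.295 ± 0.113 CPM in thymus, no read in bone and 0.0293 ± 0.0508 CPM in skin, and passed in no comparison (adjusted p = 0.0506, 0.253 and 0.165). A second group of forkhead genes, Foxq1, Foxf2 and Foxc1, spans 252 kb of chromosome 13, 31558170 to 31810635, and did not share a pattern. Foxf2, a relative of Foxf1 known from palate mesenchyme and brain pericytes, was at 0.789, 1.01 and 1.25 CPM in thymus, 2.33, 0.904 and 0.477 in bone and 0, 0.205 and 0.438 in skin. Each skin library was below all thymus and bone libraries, yet no difference passed (thymus minus skin 2.24 ± 1.27, adjusted p = 0.194, bone minus skin 2.52 ± 1.29, adjusted p = 0.128, against 0.0481 with DESeq2 and up to 0.334 over the alternatives).

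**Figure D2:**
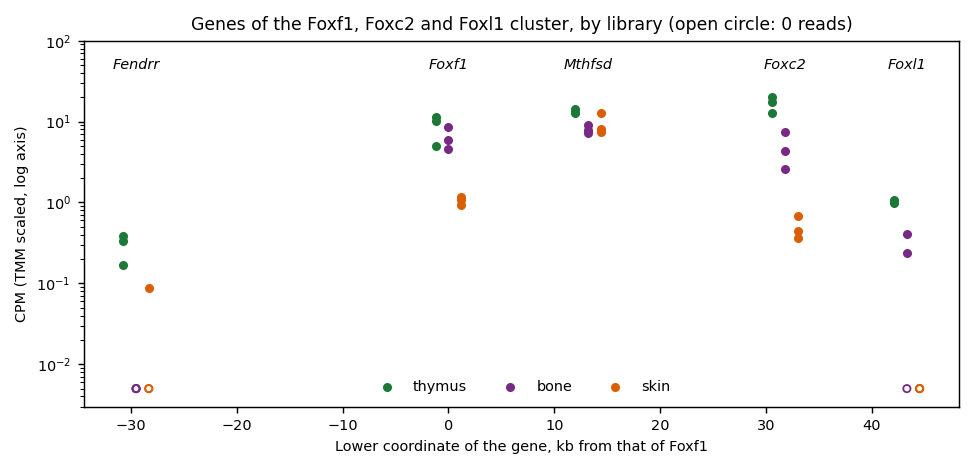
CPM per library (log axis) of Fendrr, Foxf1, Mthfsd, Foxc2 and Foxl1 at the distance of their lower coordinate from that of Foxf1, in kb; open circles are libraries with 0 reads. Skin is lowest for Foxf1 and Foxc2 and has no read of Foxl1, while all libraries of Mthfsd lie between 7.30 and 14.3 CPM.

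Genes of the hedgehog pathway, which acts upstream of Foxf1, were followed together with Bmp4 as a list of 11. In thymus, 4 were higher and 4 lower than in bone, and no median is given because the middle gene, Shh, had no read in either tissue. Against skin, 2 were higher and 5 lower in thymus (median log2 fold change -0.36, against 0.03 over all genes). In bone, 2 were higher and 5 lower than in skin (median 0.18, against 0.03). Gli1, which hedgehog signalling induces, was lower in thymus than in bone (-1.59 ± 0.22, adjusted p = 0.000196) and skin (-1.41 ± 0.22, adjusted p = 0.000385). It was at 11.2 ± 3.29 CPM in thymus cells, 33.8 ± 3.16 in bone cells and 29.8 ± 5.69 in skin cells. Hhip, a secreted inhibitor of the pathway, was at 1.28 ± 0.993 CPM in thymus cells, 83.5 ± 12.7 in bone cells and 19.5 ± 2.44 in skin cells (thymus minus bone -6.03 ± 0.72, adjusted p = 0.000158). Bmp4, a growth factor downstream of FOXF1, had its highest level in thymus, at 74.9 ± 6.12 CPM. It was at 26.5 ± 2.66 CPM in bone and 20.6 ± 7.07 in skin, and is counted above as higher in thymus than in each. Foxl2, the factor of ovarian granulosa cells, had at most 0.528 CPM in any library, in skin 1, and passed in no comparison.

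**Figure D3:**
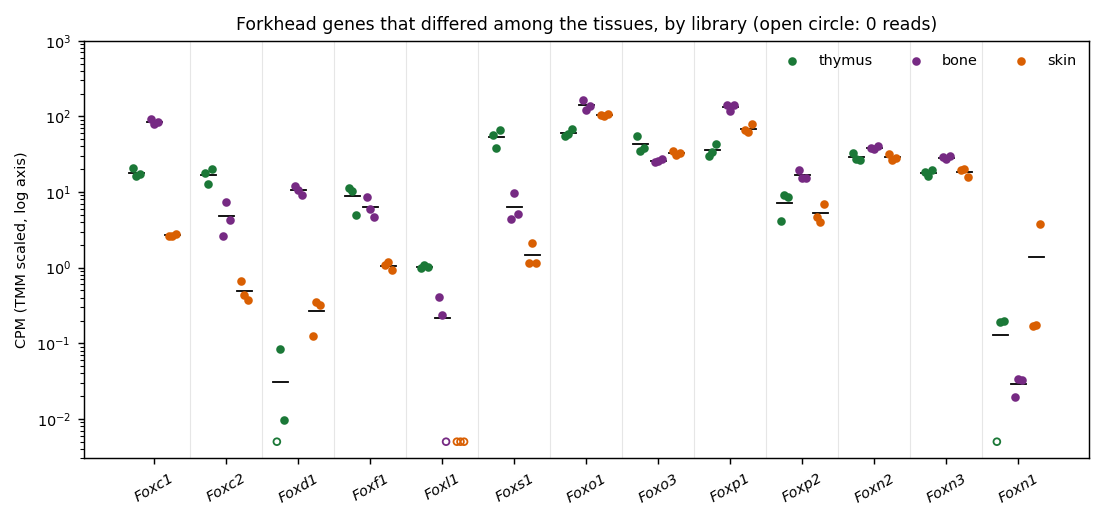
CPM per library (log axis) of the 13 forkhead genes that differed among the tissues, with thymus in green, bone in purple and skin in orange; bars are tissue means and open circles are libraries with 0 reads. The mesodermal genes span up to 3 decades between libraries with reads, whereas the FOXO, FOXP, Foxn2 and Foxn3 genes stay within 1 decade; for Foxn1 the skin mean rests on 1 library.

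Of the FOXO genes, Foxo1 and Foxo3 differed in opposite ways, and Foxo4 and Foxo6 passed in no comparison. Foxo1 was at 54.5, 58.1 and 68.8 CPM in thymus, 165, 120.5 and 136 in bone and 103, 100.2 and 109 in skin. The tissues did not overlap, and thymus was the lowest. Foxo1 was lower in thymus than in bone (-1.22 ± 0.14, adjusted p = 5.8e-05) and than in skin (-0.78 ± 0.14, adjusted p = 0.0011), and higher in bone than in skin (0.43 ± 0.14, adjusted p = 0.0259). The call between thymus and skin did not pass with library size only (-0.16, adjusted p = 0.358), a scaling that moved the median of all genes by 0.63. Nor did this call pass in any run on RPKM, and its adjusted p ran from 2.28e-06 to 0.358 over the alternatives. The call between bone and skin did not pass without bone 1 (0.30, adjusted p = 0.122), bone 3 (0.46, adjusted p = 0.0511), skin 1 (0.43, adjusted p = 0.0621) or skin 2 (0.41, adjusted p = 0.0839), with adjusted p of 3.24e-05 to 0.122 over the alternatives.

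Foxo3, which like Foxo1 induces genes of cell cycle arrest and stress resistance, was at 54.6, 35.1 and 38.3 CPM in thymus, 24.8, 25.4 and 27.7 in bone and 34.7, 31.1 and 33.2 in skin. Thymus 2 was the highest library, and no thymus library overlapped with bone or skin. Foxo3 was higher in thymus than in bone (0.72 ± 0.17, adjusted p = 0.00649) and did not pass between thymus and skin (0.37 ± 0.17, adjusted p = 0.107) or bone and skin (-0.35 ± 0.17, adjusted p = 0.11). With library size only, Foxo3 passed as higher in thymus cells than in skin cells (1.00, adjusted p = 0.000545), and the sign of bone minus skin was turned (0.34). It also passed against skin on RPKM (0.82 to 0.89), with adjusted p of 0.000545 to 0.491 over the alternatives. Per length, Foxo1 over Foxo3 was 0.509, 0.844 and 0.929 in the thymus libraries, 3.32, 2.41 and 2.49 in bone and 1.53, 1.65 and 1.69 in skin, a ratio chosen with the values known and not tested. Foxo3 was thus the higher of the pair in each thymus library and Foxo1 in each bone and skin library. Foxo4 was at 24.2 to 35.1 CPM in thymus cells, 23.9 to 33.0 in bone cells and 25.8 to 27.6 in skin cells. Foxo6, which shuttles less between nucleus and cytoplasm than its relatives, was at 0.243, 1.26 and 2.57 CPM in thymus, 2.05, 1.62 and 1.77 in bone and 3.59, 6.24 and 2.32 in skin. Without thymus 1-3, Foxo6 passed as lower in thymus cells than in skin cells (-2.43, adjusted p = 0.0359), against -1.58 ± 0.71 (adjusted p = 0.103) with all libraries, and adjusted p ran from 0.0253 to 0.35 over the alternatives.

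The 18 regulators of FOXO factors included the AKT and SGK kinases, which keep them out of the nucleus, and receptors of insulin signals. In thymus, 3 were higher and 8 lower than in bone (median log2 fold change -0.27, against 0.02 over all genes), and 6 were higher and 7 lower than in skin (median -0.26, against 0.03). In bone, 10 were higher and 3 lower than in skin (median 0.43, against 0.03). Sgk1, a kinase that phosphorylates FOXO3, was lowest in thymus and highest in bone, at 59.4 ± 12.0 CPM in thymus cells, 383 ± 72.6 in bone cells and 107 ± 40.5 in skin cells. Sirt1, a deacetylase of FOXO factors, was at 14.9 ± 0.941 CPM in thymus cells, 68.9 ± 6.85 in bone cells and 21.4 ± 4.63 in skin cells. Stk4, the kinase MST1 that promotes nuclear FOXO, was at 41.1 ± 2.56, 73.9 ± 5.57 and 32.4 ± 1.97 CPM in the same tissues.

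Of 18 genes known as FOXO targets, 17 were tested. In thymus, 2 were higher and 7 lower than in bone (median log2 fold change -0.30), and 3 were higher and 5 lower than in skin (median 0.10). In bone, 5 were higher and 4 lower than in skin (median -0.03). Klf2, a factor of quiescence, was at 115 ± 13.6 CPM in thymus cells, 360.2 ± 43.6 in bone cells and 542 ± 82.2 in skin cells, and Gadd45b, a stress response gene, at 12.1 ± 2.20, 81.4 ± 1.70 and 92.9 ± 11.4. Both were lower in thymus than in bone (-1.65 ± 0.16, adjusted p = 1.55e-05, and -2.75 ± 0.16, adjusted p = 3.48e-07). Rictor, a subunit of the kinase complex that activates AKT, was at 32.4 ± 1.66 CPM in thymus cells, 60.6 ± 1.92 in bone cells and 13.4 ± 2.33 in skin cells. Trib1 was at 33.0 ± 14.2, 109 ± 17.4 and 225 ± 26 CPM in the same tissues.

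Among the FOXP genes, Foxp1 and Foxp2 were highest in bone, Foxp4 passed in no comparison, and Foxp3 had few reads. Foxp1, a repressor with roles in lymphocytes, heart and marrow stroma, was at 30.2, 33.5 and 43.6 CPM in thymus, 140.4, 118 and 142 in bone and 65.7, 63.0 and 78.2 in skin. All 3 tissues were apart, with thymus lowest. Foxp1 was 3.73-fold lower in thymus than in bone (-1.90 ± 0.16, adjusted p = 5.32e-06), 1.93-fold lower in thymus cells than in skin cells (-0.95 ± 0.16, adjusted p = 0.000607) and higher in bone than in skin (0.95 ± 0.16, adjusted p = 0.000442). As for Foxo1, the call between thymus and skin did not pass with library size only (-0.32, adjusted p = 0.0937) or in any run on RPKM. Its adjusted p was 3.63e-07 to 0.108 over the alternatives. Foxp2, best known for its part in vocal behaviour, was at 4.15, 9.09 and 8.52 CPM in thymus, 19.4, 15.4 and 15.4 in bone and 4.68, 4.02 and 7.01 in skin. It was lower in thymus than in bone (-1.21 ± 0.31, adjusted p = 0.0116) and higher in bone than in skin (1.68 ± 0.32, adjusted p = 0.00111). Thymus and skin overlapped for Foxp2 and did not pass (0.47 ± 0.31, adjusted p = 0.267), though Foxp2 passed with library size only (1.10, adjusted p = 0.0117), the lowest of the alternatives, which ran up to 0.597.

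Foxp4 was at 52.2, 44.0 and 74.1 CPM in thymus, 65.9, 66.2 and 74.2 in bone and 53.8, 74.2 and 70.8 in skin. Thymus 1-3 stood above the other thymus libraries, and without it Foxp4 was lower in thymus than in bone (-0.53, adjusted p = 0.0296) and than in skin (-0.48, adjusted p = 0.0369). With all libraries the values were -0.28 ± 0.19 (adjusted p = 0.291) and -0.22 ± 0.19 (adjusted p = 0.39), and over the alternatives adjusted p ran from 0.0232 to 0.694 and from 0.0327 to 0.837. With library size only the sign against skin was turned, at 0.41. Per length, Foxp1 over Foxp4 was 0.310, 0.412 and 0.320 in thymus, 1.16, 0.958 and 1.03 in bone and 0.657, 0.461 and 0.599 in skin, a description of a pair chosen with the values known. Foxp3, the factor that defines regulatory T cells, was at 0.109, 0.0669 and 0.990 CPM in thymus, 0, 0.0768 and 0 in bone and 0.0225, 0.191 and 0.0346 in skin. Most thymus reads came from thymus 1-3, and no difference passed (thymus minus bone 3.83 ± 2.08, adjusted p = 0.185, thymus minus skin 2.23 ± 1.94, adjusted p = 0.404). The 4 other markers of regulatory T cells summed to 6.74, 9.82 and 8.18 CPM in thymus, 7.04, 18.7 and 9.26 in bone and 2.95, 1.27 and 3.79 in skin, so thymus 1-3 did not stand apart in them. The 8 markers of thymocytes and T cells summed to 60.4, 173 and 95 CPM in thymus, with thymus 3 highest, 29.6 to 39.3 in bone and 5.44 to 8.34 in skin. Exons of Foxp3 overlap genes of the opposite strand in GENCODE M21, as do those of Foxf1, Foxf2, Foxj2, Foxl2, Foxo1 and Foxq1, and how the counting treated strand was not given in the sources used here. Among the genes tested, exons of Foxj2, Foxm1, Foxp1 and Foxp3 also overlap genes of the same strand there. Reads of such partners cannot be told apart from those of the forkhead gene.

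**Figure D4:**
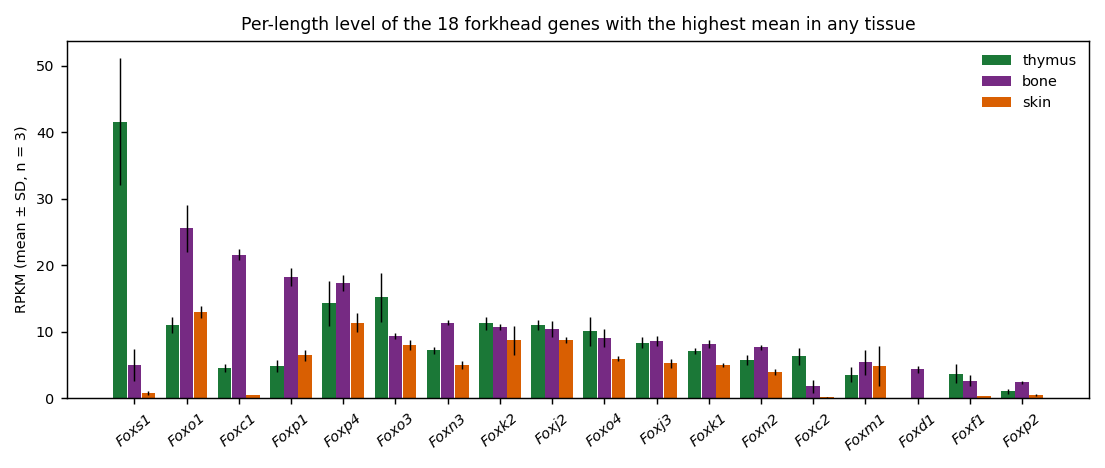
Mean RPKM per tissue, with the SD over 3 libraries as a bar, of the 18 forkhead genes with the highest mean in any tissue. Foxs1 in thymus is the tallest bar at 41.6 RPKM, and Foxo1 leads in bone and skin at 25.5 and 13 RPKM.

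Per length, the leading forkhead genes differed by tissue. In thymus they were Foxs1 at 41.6 ± 9.60 RPKM, Foxo3 at 15.2 ± 3.66 and Foxp4 at 14.3 ± 3.41. In bone they were Foxo1 at 25.5 ± 3.49, Foxc1 at 21.6 ± 0.825 and Foxp1 at 18.2 ± 1.42. In skin they were Foxo1 at 13 ± 0.948, Foxp4 at 11.4 ± 1.47 and Foxj2 at 8.78 ± 0.479 RPKM. In thymus, every Foxs1 library (31.0 to 49.6 RPKM) lay above every Foxo3 library. The next neighbours overlapped or nearly met: in thymus, Foxo3 had 13 to 19.4 RPKM and Foxp4 11.5 to 18.1, and in bone, Foxo1 had 22.5 to 29.4 RPKM and Foxc1 20.9 to 22.5. The 7 genes of wide expression together had 54.3 ± 2.22 RPKM in thymus, 62.4 ± 0.450 in bone and 41.4 ± 7.33 in skin. Summed as CPM, these genes stood at 265 ± 18.8 for thymus cells, 296 ± 6.64 for bone cells and 295 ± 45.3 for skin cells. Skin was thus lowest in RPKM but not in CPM, so its place depends on the unit.

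Genes with wide expression made up most of the rest. Foxk1 and Foxk2, repressors linked to glucose use and autophagy, were at 49.0 to 58.0 and 52.9 to 61.1 CPM in thymus, 55.3 to 62.3 and 51.4 to 56.4 in bone and 51.2 to 54.8 and 45.7 to 73.6 in skin. Foxj2 was at 49.9 to 61.2 CPM in thymus cells, 46.1 to 59.5 in bone cells and 60.4 to 65.5 in skin cells, and Foxj3 at 34.1 to 43.4, 35.0 to 44.2 and 32.0 to 40.2. With TMM these 4 genes passed in no comparison, and with library size only all of them passed as higher in thymus and in bone than in skin, which turned the direction of Foxj2 and Foxk2 in both comparisons and of Foxk1 between thymus and skin. Skin 3 had the lowest Foxk2 value of all libraries, and without it Foxk2 passed as lower in thymus cells (-0.37, adjusted p = 0.0467) and in bone cells (-0.44, adjusted p = 0.0184) than in skin, within 0.0453 to 0.88 and 0.0102 to 0.618 over the alternatives. Without bone 1, Foxj2 passed as lower in bone cells than in skin cells (-0.42, adjusted p = 0.037), within 0.0245 to 0.257 over the alternatives. Foxn3, a checkpoint suppressor, was at 18.4, 16.1 and 19.6 CPM in thymus, 28.8, 27 and 29.5 in bone and 19.8, 20.05 and 15.6 in skin. It was lower in thymus than in bone (-0.66 ± 0.16, adjusted p = 0.00688) and higher in bone than in skin (0.62 ± 0.16, adjusted p = 0.00651). Foxn2, its nearest relative, was at 33.1, 27.1 and 26.6 CPM in thymus, 38.1, 36.7 and 40.2 in bone and 31.4, 26.4 and 28.3 in skin. Its differences were smaller (thymus minus bone -0.41 ± 0.14, adjusted p = 0.044, bone minus skin 0.42 ± 0.14, adjusted p = 0.0286). The first of these did not pass without thymus 3, thymus 1-3, any 1 bone library, skin 1 or skin 2, at -0.43 to -0.36 and adjusted p of 0.0514 to 0.139. Over the alternatives its adjusted p ran from 0.0169 to 0.236. The second did not pass without bone 1, bone 3, skin 2 or skin 3, at 0.36 to 0.42 and adjusted p of 0.0559 to 0.106, against 8.22e-05 to 0.106 over all alternatives.

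Foxm1, which drives the mitotic genes of cycling cells, had its widest spread among the skin libraries. It was at 11.5, 13.7 and 22.4 CPM in thymus, 15.6, 29.4 and 25.7 in bone and 49.0, 32.3 and 12.0 in skin. The skin libraries spanned both the highest and the second lowest value of all 9. No comparison passed (thymus minus bone -0.57 ± 0.46, adjusted p = 0.385, thymus minus skin -0.97 ± 0.47, adjusted p = 0.134, bone minus skin -0.40 ± 0.46, adjusted p = 0.514). Without skin 3, Foxm1 passed as lower in thymus cells than in skin cells (-1.36, adjusted p = 0.00951), and over all alternatives adjusted p ran from 0.00293 to 0.898. The 19 known FOXM1 targets, genes of mitosis such as Ccnb1 and Plk1, summed to 177, 227 and 231 CPM in thymus, 444, 531 and 572 in bone and 453, 279.6 and 134 in skin. Within skin, both Foxm1 and this sum were highest in skin 1 and lowest in skin 3. In thymus, none of the targets was higher than in bone and 8 were lower (median log2 fold change -1.09, against 0.02 over all genes). None was higher than in skin and 7 were lower (median -1.02, against 0.03). In bone, 3 were higher than in skin and none was lower (median 0.07, against 0.03). Mki67, the proliferation marker, was at 61.6 ± 15.4 CPM in thymus cells, 182 ± 21.9 in bone cells and 39.4 ± 30.2 in skin cells, and was lower in thymus than in bone (-1.57 ± 0.50, adjusted p = 0.0361). Cks1b, a subunit of cell cycle kinases, was at 9.49 ± 1.02, 16.6 ± 1.58 and 22.4 ± 2.28 CPM in the same tissues.

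**Figure D5:**
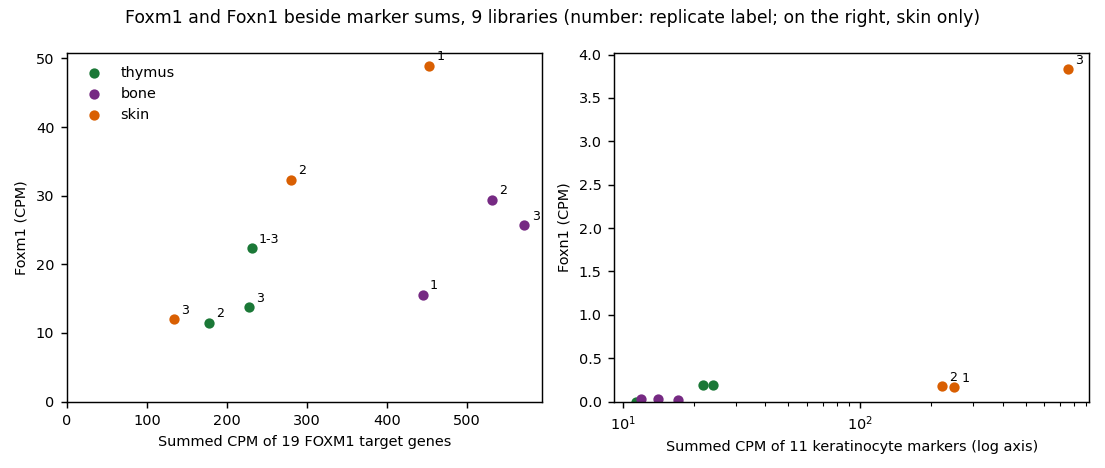
Foxm1 against the summed CPM of 19 FOXM1 targets (left) and Foxn1 against the summed CPM of 11 keratinocyte markers (right, log horizontal axis), each point being 1 library and the numbers its replicate label. The skin libraries run from 12.0 to 49.0 CPM of Foxm1, and skin 3 alone has more than 0.2 CPM of Foxn1.

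Foxn1, the factor of thymic epithelium and hair keratinocytes, had few reads in the thymus libraries and was found mainly in 1 skin library. It was at 0, 0.192 and 0.196 CPM in thymus, 0.0194, 0.0341 and 0.0325 in bone and 0.169, 0.176 and 3.83 in skin. Skin 3 thus held most of its reads, and the other skin libraries lay within the range of thymus. Foxn1 passed as lower in bone cells than in skin cells (-5.54 ± 1.89, adjusted p = 0.03) and did not pass between thymus and bone (2.12 ± 1.66, adjusted p = 0.363) or thymus and skin (-3.42 ± 1.69, adjusted p = 0.136). Without skin 3 the value for bone minus skin was -2.54 (adjusted p = 0.381). It did not pass either without bone 1 (adjusted p = 0.0725), bone 2 (adjusted p = 0.0712) or bone 3 (adjusted p = 0.0746), with adjusted p of 0.0143 to 0.43 over the alternatives. The 11 markers of hair follicle and epidermal keratinocytes summed to 11.4 to 24.1 CPM in thymus, 12.0 to 17.1 in bone and 249, 221 and 753 in skin, highest in skin 3. Of these markers, 1 was at 0 in thymus, 3 in bone and none in skin. The 10 markers of thymic epithelium summed to 15.1 to 21.8 CPM in thymus, 6.62 to 8.87 in bone and 18.3, 26.1 and 55.3 in skin. Of the 9 tested from this list, 4 were higher and 2 lower in thymus than in skin. Krt5, which is also in the keratinocyte list, and Cldn4 led the skin sum, at 14.4 ± 8.06 and 9.47 ± 10.6 CPM. Krt8 was at 3.19 ± 1.45 CPM in thymus cells, 0.00723 ± 0.0125 in bone cells and 0.0882 ± 0.0437 in skin cells. The sort had removed cells with EpCAM on their surface. The part of epithelial cells in the Foxn1 values was not tested.

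Foxq1, Foxe1 and Foxi3 also had most of their skin reads in skin 3, whereas Foxj1 and Foxa1 had most of theirs in skin 2. Foxq1, a gene of hair shaft differentiation in mice, was at 0.126, 0.100 and 0.176 CPM in thymus, 0, 0 and 0.239 in bone and 0.0900, 0.293 and 5.26 in skin, and passed in no comparison (bone minus skin -4.56 ± 1.97, adjusted p = 0.0776). Without bone 3, the only bone library with reads of Foxq1, the difference passed (adjusted p = 0.0116), with adjusted p of 0.0116 to 0.725 over the alternatives. Foxe1, known from thyroid and hair follicle, had no read in thymus or bone and 0.0112, 0.147 and 0.634 CPM in skin. Foxi3, a factor of ectodermal placodes, was at 0, 0.0502 and 0 CPM in thymus, 0 in bone and 0, 0.0293 and 0.208 in skin. Both were below the filter and were not tested. Of 14 genes that FOXN1 serves or that share its tissue, 13 were tested. In thymus, 3 were higher and 4 lower than in bone (median 0.86, against 0.02 over all genes) and 3 higher and 4 lower than in skin (median -0.43, against 0.03). In bone, 3 were higher and 4 lower than in skin (median 0.45, against 0.03). Pax1, a factor of pharyngeal pouches and of the sclerotome, was at 0.249 ± 0.245 CPM in thymus cells, 7.06 ± 1.32 in bone cells and 16.7 ± 2.83 in skin cells, and Trp63, the master factor of stratified epithelium, at 11.9 ± 3.20, 0.534 ± 0.144 and 5.83 ± 3.67.

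The remaining members were at the lower end of detection. Foxj1, the master factor of motile cilia, was at 0.00839, 0.284 and 0.137 CPM in thymus, 0, 1.2 and 0.976 in bone and 0.0675, 0.689 and 0.277 in skin, with overlap of all tissues and no call. Foxa1, a pioneer factor of endoderm, was at 0 to 0.510 CPM over the 9 libraries and was also not called. Foxr1 had 54 reads and Foxd4 had 22, all of them in bone 2. Foxd3, a factor of neural crest, had 13 reads, all in skin 2 and skin 3. Foxa2 and Foxa3 had 40 and 30 reads, none in skin. A tissue with 0 reads over its 3 libraries allows up to 0.00881 CPM in thymus cells, 0.0096 in bone cells and 0.0123 in skin cells.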

How the data were processed

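RNA of 9 samples was sequenced, and the deposited count tables hold whole read counts per gene symbol with 5 summary lines (5.05 to 14.8% of reads), which were left out. The deposited RPKM tables give the authors' RPKM, mm10 coordinates and a signal, which per gene was typically 98.5 to 99.2 times the reads and entered no test. Per the submitters' processing notes, CASAVA 1.8.2, HTSeq 0.5.4 and mm10 were used. The aligner, the annotation and the handling of strand were not given in the sources used here. Replicate libraries differed by more than sampling noise (chi-square of 96.3 to 306.5 per degree of freedom) and each counted as 1 sample.

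After filterByExpr and TMM scaling, the quasi-likelihood test of edgeR 4.0.16 (R 4.3.3, robust) was run on the counts. TMM factors were 1.104 to 1.179 in thymus cells, 1.161 to 1.233 in bone cells and 0.7006 to 0.7697 in skin cells. The model had 1 mean per tissue over the 9 libraries and no block. Adjustment was by Benjamini-Hochberg over 15635 genes. Methods were tested on simulated data. The authors' deposited RPKM served for levels between genes and, as log2 of RPKM plus 1 or 0.1 in limma 3.58.1, as an alternative, as did DESeq2 1.42.0, other scalings and filters, and libraries left out. A group with 0 reads was set to 3 reads.

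The members and gene lists were chosen with earlier results of these data known. Values per library are given for genes past 4-fold, for the 3 with the highest RPKM per tissue and for 14 family representatives, and up to 4 genes of each partner list are named by smallest p. Foxq1, Foxo6, Foxp2, Foxn2, Foxn3, Mthfsd and Fendrr were added after their values were seen. Some genes are not reported here.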

Additional observations from a re-analysis of the deposited data

How the results depend on the processing

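Of 30 called changes of single forkhead genes, 22 passed under every alternative that gave a value for them. Of 621 alternative values, 573 stayed past the threshold, 48 did not pass and none changed sign. Foxl1 had values in 19 alternatives between thymus and skin and in 18 between bone and skin. Foxn1 had values in 17 between bone and skin, and the other calls in 21. The counts moved by over 1.5 times as follows. With library size only, 14 genes were higher and 1 lower in thymus than in skin, against 5 and 3, and 17 were higher in bone than in skin, against 11. The added genes were Foxj2, Foxj3, Foxk1, Foxk2 and Foxo4 in both comparisons, Foxn2, Foxn3, Foxo3 and Foxp2 against skin in thymus, and Foxp4 against skin in bone. That scaling moved the median of all genes by 0.63 in thymus minus skin and 0.69 in bone minus skin, and 85.4% and 84.3% of all calls were then higher, against 51.3% and 50.3%. On log2 of RPKM plus 1, plus 0.1 and plus 1 without filter, 10, 11 and 12 genes were higher and 0 lower in thymus than in skin. The median of all genes moved by 0.42 with RPKM plus 1 and by 0.53 with RPKM plus 0.1 in that comparison. With DESeq2, 6 genes were lower in thymus than in skin. The 1 gene lower in bone than in skin, Foxn1, was not called with a filter of 1 CPM or on RPKM, which gave 0. Apart from these and from the libraries left out and the block below, the alternatives left the counts within 1.5 times.

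With each library left out in turn, 3 to 3 genes were higher and 6 to 7 lower in thymus than in bone, 5 to 5 higher and 3 to 5 lower in thymus than in skin (5 without skin 3, which added Foxk2 and Foxm1), and 8 to 11 higher and 0 to 1 lower in bone than in skin (0 without bone 2), and 11 to 14 differed among the tissues. An alternative without thymus 1-3 and skin 3 together was chosen after seeing the data, and called 2 genes lower in bone than in skin, Foxk2 and Foxm1. With the replicate number as a block, 0 genes were lower in bone than in skin. Whether equal numbers mark paired samples is not given in the labels. Libraries of the same number correlated at -0.0326 to 0.0755 in their deviations from the tissue means, other pairs at -0.0657 to 0.0705. These ranges overlap, but tissues of 1 animal need not share such deviations, so they cannot decide whether the samples are paired. In the fit with the block, thymus 1-3 has a number of its own and adds nothing to the tissue means. Members below the filter were not tested, and whether greater depth or more libraries would change the calls was not tested.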
